A study of Mus musculus with 2 samples.

Results

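The platelet-derived growth factor (PDGF) ligands and receptors were followed across the cell types of mouse vein grafts. The family was taken as the genes Pdgfa, Pdgfb, Pdgfc and Pdgfd, which encode the 4 ligand chains, and Pdgfra and Pdgfrb, which encode the 2 receptors; all 6 were found by symbol among the 32285 genes of the deposited matrices. On mm10, by GENCODE vM21, Pdgfa lies at chr5:138976014-138997370 and Pdgfb at chr15:79995874-80014977, both on the minus strand. On the plus strand lie Pdgfc at chr3:81036416-81214040, Pdgfd at chr9:6168584-6378850, Pdgfra at chr5:75152292-75198215 and Pdgfrb at chr18:61045150-61085061. Vein grafts are veins placed into the circulation of another site. One single-cell RNA library came from No-Touch grafts, for which the vein is taken with the tissue around it, and the other from conventional grafts. All mice were C57BL6/J animals of 10 to 12 weeks, and no genetic change is given for either group. In both, live nucleated cells without surface CD45, the leukocyte antigen, were sorted after papain and then collagenase and dispase digestion.

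PDGF ligands are secreted dimers that bind receptor tyrosine kinases at the cell surface. PDGF-A and PDGF-C chains act mainly through the alpha receptor, PDGF-D mainly through the beta receptor, and PDGF-B binds both. In vessels, PDGF-B from endothelial cells is known to recruit pericytes and smooth muscle cells, which carry the beta receptor, while the alpha receptor is a common marker of fibroblasts. PDGF-C and PDGF-D are secreted in a latent form that proteases such as tissue plasminogen activator and urokinase cleave.

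Each graft type was 1 library, so the values below compare 2 libraries, no difference has a replicate check and no p-value is given. After filtering, 10462 No-Touch and 9583 conventional cells were kept, with medians of 27463.5 and 16255 UMIs (unique molecular identifiers, 1 per captured RNA molecule). The libraries shared 22 barcodes, and cells of a library share its preparation, so they are not replicates. Some cells may come from neighbouring tissue, as 6 No-Touch and 141 conventional cells were parathyroid-like, but the labels do not give their origin. The mostly conventional cluster 5 was led by the salivary gene Scgb1b27, but 83.4% of its cells fell into the fibroblast-like class described below. Its 557 conventional fibroblast-like cells, 11.3% of that class, were kept in the comparisons. Xist, the RNA that coats the inactive X chromosome, was at 0.105 UMIs per 1000000 (CPM) in the No-Touch library and 163 in the conventional one, and the Y-linked Ddx3y was at 117 and 84.5. Cells with a UMI of Xist and none of 4 Y-linked genes made up 0.0287% of No-Touch and 18.9% of conventional cells; cells with the reverse made up 93.0% and 58.4%. The conventional library thus held cells of both kinds, the labels give no sex, and the comparisons were repeated on cells with a Y-linked UMI and no Xist UMI. That repeat left out cells with UMIs of both Xist and a Y-linked gene, 0.258% of No-Touch and 9.09% of conventional cells. It also left out cells with neither, 6.7% and 13.6%.

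Cells were put into classes by markers that hold none of the 6 genes, and a class is called "like" its cell type. Fibroblast-like cells (Dcn, Dpt and Pi16) numbered 7493 in the No-Touch and 4917 in the conventional library. Smooth muscle-like cells (Myh11, Acta2 and Cnn1) numbered 301 and 279, and pericyte-like cells (Rgs5, Higd1b and Cox4i2) numbered 177 and 372. Another 121 and 305 cells held both mural programmes and were kept as mixed mural cells. Blood endothelial-like cells numbered 391 and 792, lymphatic endothelial-like cells 251 and 276, Schwann-like cells 286 and 159, and neutrophil-like cells 53 and 282. The gate is a limit on a continuous score: 17.7% of No-Touch and 36.7% of conventional fibroblast-like cells lay near it, and 1105 and 1882 cells stayed ungated. In fibroblast-like cells the median share of markers detected was 80% and 70% for their own set, and at most 11.1% and 0% for any other. Levels are UMIs of a gene per 1000000 UMIs of the class (CPM), with exact 95% Poisson intervals in brackets; these cover counting error only.

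Pdgfa was lower in No-Touch smooth muscle-like cells, Pdgfd was higher in 3 No-Touch classes, and the level of Pdgfra set fibroblast-like cells apart. Pdgfrb was lower in several No-Touch classes, fibroblast-like and smooth muscle-like cells among them, but its sequence is not shown. Upstream sequences are shown for Pdgfa, Pdgfd and Pdgfra. They are the 250 bases before the RefSeq start on GRCm38.p6, read 5′ to 3′ on the gene's strand, at chr5:138994945-138995194 (minus strand, 1 of 2 starts listed for Pdgfa), chr9:6168236-6168485 (plus strand) and chr5:75152001-75152250 (plus strand). Capitals mark the GC box GGGCGG and the TATA box TATAAA, searched on both strands; no matches overlap.
Pdgfa: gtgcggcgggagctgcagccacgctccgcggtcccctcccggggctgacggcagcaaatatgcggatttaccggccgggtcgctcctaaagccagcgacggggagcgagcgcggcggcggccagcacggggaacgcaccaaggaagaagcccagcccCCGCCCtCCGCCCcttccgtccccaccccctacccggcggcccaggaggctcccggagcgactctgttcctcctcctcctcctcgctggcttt
Pdgfd: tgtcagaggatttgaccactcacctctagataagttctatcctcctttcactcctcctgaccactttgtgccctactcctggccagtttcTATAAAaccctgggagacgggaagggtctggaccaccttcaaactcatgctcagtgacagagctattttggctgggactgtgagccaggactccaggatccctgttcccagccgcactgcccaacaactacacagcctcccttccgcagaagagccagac
Pdgfra: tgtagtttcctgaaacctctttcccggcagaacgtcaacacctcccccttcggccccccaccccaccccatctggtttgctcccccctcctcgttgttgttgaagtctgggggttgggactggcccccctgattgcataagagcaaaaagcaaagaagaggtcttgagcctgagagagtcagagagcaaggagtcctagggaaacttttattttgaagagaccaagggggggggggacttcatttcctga
The Pdgfa window had 72.4% G and C with 2 GC boxes, the Pdgfd window 53.6% with 1 TATA box, and the Pdgfra window 54.4% with neither. The TATAAA match of Pdgfd begins 160 bases before the RefSeq start, and whether it acts as a TATA box was not tested. The median over all 32851 windows was 52.4%, and 32.7% of windows held a GC box and 12.4% a TATA box. The window of the other start listed for Pdgfa had 66.4% with 1 GC box. For Pdgfd and Pdgfra the RefSeq start lies before the GENCODE vM21 gene start, at 6168584 and 75152292. For Pdgfa the window shown lies inside the GENCODE vM21 gene, which begins on the minus strand at 138997370. The Pdgfb and Pdgfrb sequences were not used here.

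Pdgfa was highest in mural and Schwann-like cells in both libraries. Its level in mixed mural cells was 559 CPM (526 to 595) in No-Touch grafts and 732 (703 to 762) in conventional grafts. In pericyte-like cells it was 521 (494 to 548) and 704 (677 to 732), and in both libraries the intervals of these neighbouring classes overlapped. Schwann-like cells, the glia of peripheral nerves, held 442 (419 to 466) No-Touch and 448 (413 to 486) conventional CPM of Pdgfa. Smooth muscle-like cells stood below Schwann-like cells in the No-Touch library, at 284 CPM (271 to 299), and above them in the conventional one, at 583 (559 to 607). Levels in blood endothelial-like cells were 95.2 and 127 CPM, in lymphatic endothelial-like cells 66.2 and 73.1, and in fibroblast-like cells 60.4 and 67.9. Neutrophil-like cells, which serve here as a class in which family RNA is likely to be free RNA of the droplets, held 3.86 CPM from 1 UMI and 11.8 CPM from 9 UMIs. In the 122 T or NK-like cells of the No-Touch library Pdgfa was at 92.5 CPM, but 1 cell gave 151 of its 157 UMIs, and without that cell the level was 3.78 CPM. Although fibroblast-like cells had a low level, their number made them the largest source of Pdgfa UMIs, with 62.6% of those in No-Touch and 35.8% of those in conventional kept cells.

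Pdgfb was largely a gene of endothelial and Schwann-like cells. Blood endothelial-like cells held 110 CPM (103 to 117) in the No-Touch library, against 145 (138 to 152) in the conventional one. In Schwann-like cells the level was 173 CPM (159 to 189) and 139 (120 to 161). The order of these classes therefore differed: Schwann-like cells were first in the No-Touch library with intervals apart, while in the conventional library the intervals overlapped. Mononuclear phagocyte-like cells, with 76 cells in the No-Touch library and too few in the conventional one, held 67.4 CPM (51.4 to 86.8). There 1 cell gave 15 of the 60 Pdgfb UMIs, and the level without it was 51.3 CPM. Lymphatic endothelial-like cells held 24.5 and 32.2 CPM, smooth muscle-like cells 14.7 and 14.1, and fibroblast-like cells 0.790 and 1.03. The blood endothelial-like class gave 42.5% of all Pdgfb UMIs in No-Touch cells and 67.9% in conventional cells, and Schwann-like cells gave 24.2% and 7.59%. Fewer cells of a type and less RNA per cell cannot be told apart in such shares.

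The later-found ligands Pdgfc and Pdgfd were at lower levels, with their highest values in smooth muscle-like cells. Pdgfc was at 39.0 CPM (34.0 to 44.5) in No-Touch and 42.5 (36.2 to 49.4) in conventional smooth muscle-like cells, followed by fibroblast-like cells at 18.9 (18.4 to 19.4) and 22.3 (21.5 to 23.2). The other gated classes of at least 50 cells stayed between 1.13 and 9.95 CPM of Pdgfc. Pdgfd was at 48.5 CPM (43.0 to 54.6) in No-Touch and 23.5 (19.0 to 28.9) in conventional smooth muscle-like cells. In blood endothelial-like cells it was at 33.2 (29.5 to 37.3) and 16.3 (14.0 to 18.8), and in fibroblast-like cells at 15.6 (15.1 to 16.0) and 8.42 (7.89 to 8.97). Mixed mural cells stood at 23.2 and 21.4 CPM of Pdgfd and overlapped blood endothelial-like cells in both libraries, and smooth muscle-like cells in the conventional one. No Pdgfd UMI was seen in the 159 conventional Schwann-like cells, where the exact interval reaches 2.81 CPM.

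**Figure D1:**
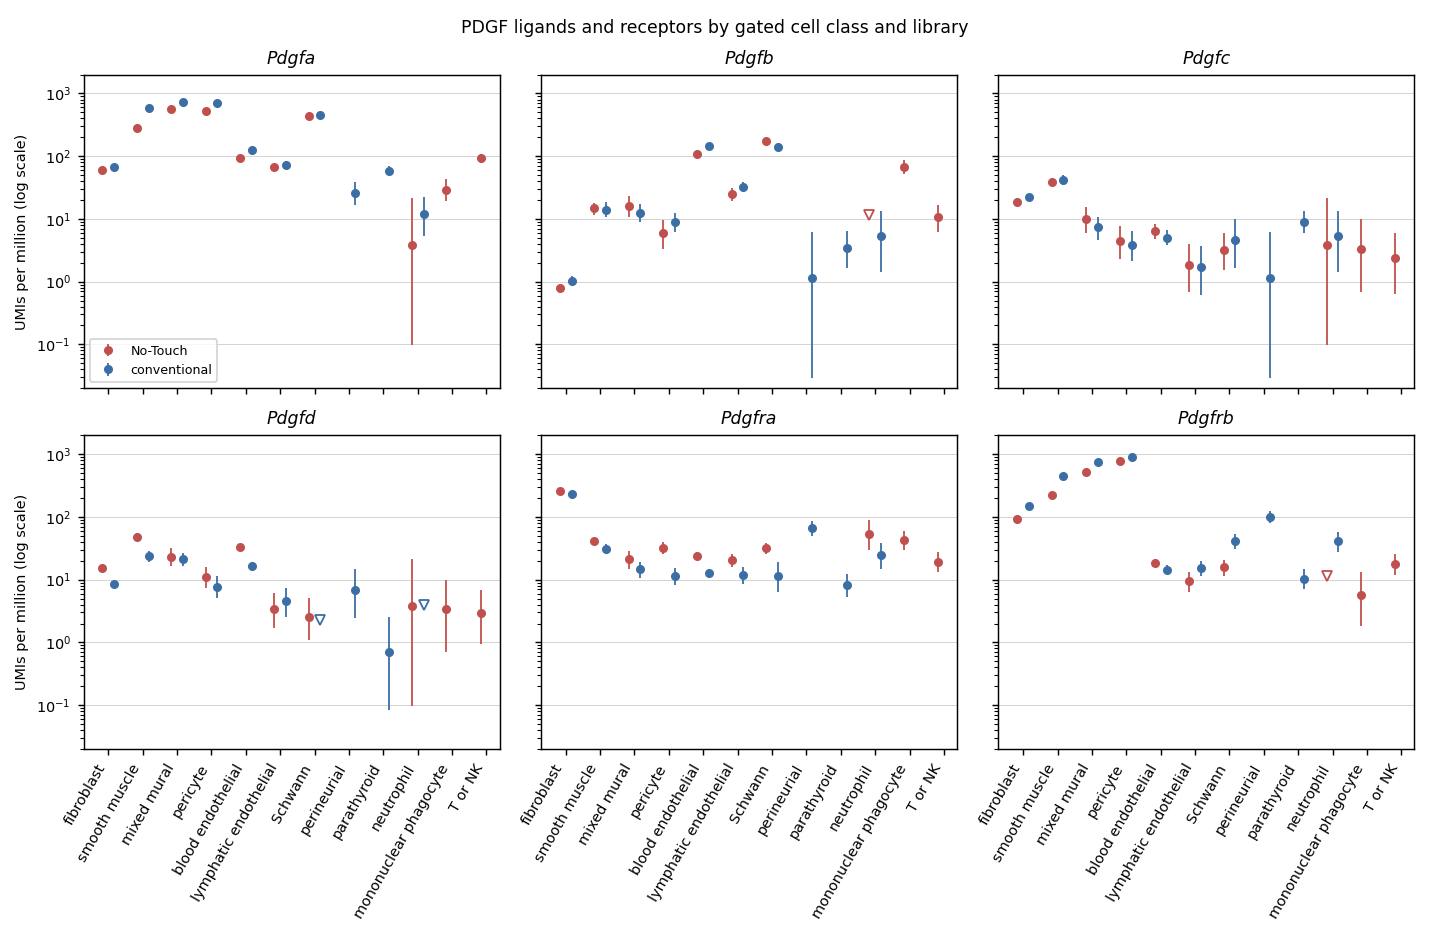
CPM of UMIs (log scale) of each gene by gated class, No-Touch in red on the left and conventional in blue on the right; bars are exact 95% Poisson intervals, classes under 50 cells are left out, and open triangles mark a class without a UMI at its limit of 3 UMIs. Pdgfa stands highest in the mural and Schwann-like classes, Pdgfrb in the mural classes, Pdgfb in blood endothelial-like and Schwann-like cells, and Pdgfra in fibroblast-like cells.

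Pdgfra, the alpha receptor, set fibroblast-like cells apart from the other gated classes. Its level there was 259 CPM (257 to 260) in No-Touch and 233 (230 to 235) in conventional grafts, and the gap to the next class was larger than counting error in both. That next class was neutrophil-like cells at 54.0 CPM (29.5 to 90.6) in No-Touch grafts, and the 65 perineurial-like cells, the sheath cells of nerves, at 65.5 (49.8 to 84.7) in conventional grafts. The remaining gated classes ranged from 19.4 to 42.7 CPM in the No-Touch and from 8.32 to 31.2 CPM in the conventional library. The 42.7 CPM are those of mononuclear phagocyte-like cells, where 1 cell gave 18 of 38 UMIs, and the level without it was 23.5 CPM. Ungated cells held 201 and 204 CPM. All 10 fibroblast markers, Dcn among them, were at 10 CPM or more in each of the 6 other compared classes, in both libraries. Pdgfra per 1000 Dcn UMIs was 24.1 and 21.2 in fibroblast-like cells, 18.6 and 26.0 in blood endothelial-like cells, 34.3 and 17.9 in pericyte-like cells and 39.1 and 30.9 in Schwann-like cells. In neutrophil-like cells the same ratio was 64.2 (35.1 to 108) and 34.7 (20.9 to 54.1). The part of fibroblast RNA in the low Pdgfra levels of other classes was not tested.

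Pdgfrb, the beta receptor, had the same order of its 4 highest gated classes in both libraries. Pericyte-like cells led with 780 CPM (747 to 814) in the No-Touch and 904 (874 to 936) in the conventional library. Mixed mural cells followed with 526 (493 to 560) and 763 (734 to 794), then smooth muscle-like cells with 220 (208 to 233) and 453 (432 to 474), then fibroblast-like cells with 93.7 (92.5 to 94.8) and 149 (147 to 151). No neighbouring intervals among these 4 classes overlapped in either library. Ungated cells held 106 and 184 CPM. Blood endothelial-like cells held 18.6 and 14.5 CPM, lymphatic endothelial-like cells 9.5 and 15.2, and Schwann-like cells 15.7 and 41.1. Neutrophil-like cells had no Pdgfrb UMI in the No-Touch library, where the exact interval reaches 14.2 CPM, and 40.8 CPM (27.7 to 57.9) in the conventional one. The conventional Schwann-like level lay within this last interval, that of a class expected to lack the gene. The 159 conventional Schwann-like cells gave 54 Pdgfrb UMIs at a median depth of 7732 UMIs. The 282 conventional neutrophil-like cells gave 31 at a median of 2558. At such unlike depths equal CPM is not equal RNA per cell, and the part of free RNA in either level was not tested.

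The receptors were set side by side in single cells after every cell was thinned to 3000 UMIs, which left out 80 No-Touch and 44 conventional fibroblast-like cells. A UMI of both receptors was found in 13.5% (12.8 to 14.3) of No-Touch and 17.9% (16.8 to 19.0) of conventional fibroblast-like cells. Pdgfra alone was found in 37.5% (36.4 to 38.7) and 30.9% (29.6 to 32.2), and Pdgfrb alone in 11.8% (11.1 to 12.6) and 17.4% (16.4 to 18.5). Without thinning, both receptors were detected in 84.8% and 81.6% of these cells. Among fibroblast-like cells with a Pdgfra UMI, 26.5% of No-Touch and 36.6% of conventional cells also had one of Pdgfrb, against 24.2% and 34.0% of the cells without. In pericyte-like cells Pdgfrb alone was found in 80.8% (74.2 to 86.3) and 89.8% (86.2 to 92.7). For comparison, thinned neutrophil-like cells had a Pdgfra UMI in 11.5% (4.35 to 23.4) of 52 No-Touch and 4.82% (1.33 to 11.9) of 83 conventional cells. A Pdgfrb UMI was found in 0 of them, where the exact interval reaches 6.85%, and in 15.7% (8.61 to 25.3). Thinning left out 1 and 199 shallower cells of that class. Median depths before thinning were 32525 and 20639 UMIs in fibroblast-like and 4538 and 3474 in neutrophil-like cells. Of all receptor UMIs in fibroblast-like cells, 73.4% (73.1 to 73.7) were Pdgfra in the No-Touch library and 61.0% (60.5 to 61.4) in the conventional one.

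**Figure D2:**
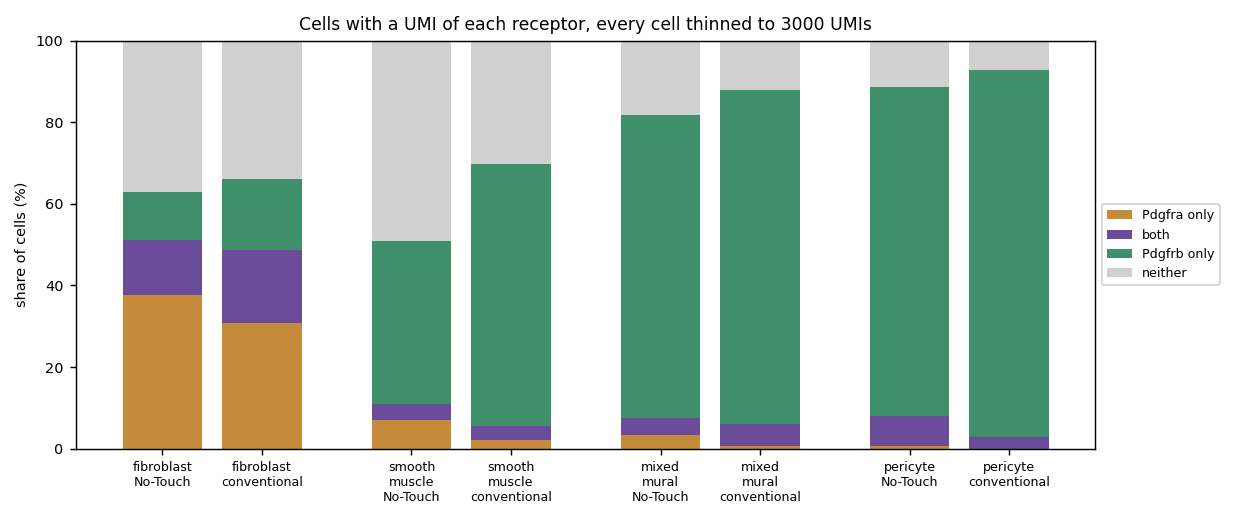
Share of cells (%) with a UMI of Pdgfra only, of both receptors, of Pdgfrb only or of neither, every cell thinned to 3000 UMIs; each class has the No-Touch library left of the conventional one. Cells with Pdgfra alone make up 37.5% and 30.9% of fibroblast-like cells, and cells with Pdgfrb alone 80.8% and 89.8% of pericyte-like cells.

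Graft types were compared by the ratio of CPM, No-Touch over conventional, with its exact interval for counting error in brackets. Genes at 10 CPM or more in either library were counted, and those whose values, with 1 CPM added to each, were at least 1.5 times apart are called higher or lower. In fibroblast-like cells 5 of the 6 genes were counted, and Pdgfb stayed below that level. Pdgfd was higher in the No-Touch library, with a ratio of 1.85 (1.72 to 1.99), where 6.73% of the 8382 genes tested were that much higher. Pdgfrb was lower, with a ratio of 0.629 (0.617 to 0.641), where 3.17% of genes were that much lower. Pdgfra was 1.11 (1.10 to 1.13), Pdgfa 0.890 (0.866 to 0.915) and Pdgfc 0.846 (0.806 to 0.888) times the conventional level, each within 1.5 times. With every cell thinned to 3000 UMIs, the log2 ratio of Pdgfrb was -0.58 in place of -0.66, just inside the limit. In cells with a Y-linked UMI and no Xist UMI the log2 ratios were 0.84 for Pdgfd and -0.68 for Pdgfrb.

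In smooth muscle-like cells all 6 genes were counted and 3 were apart. Pdgfa was lower in the No-Touch library, with a ratio of 0.488 (0.458 to 0.521), and so was Pdgfrb, with 0.487 (0.452 to 0.523); 9.60% of the genes tested were at least 1.5 times lower. Pdgfd was higher, with a ratio of 2.06 (1.62 to 2.64), where 14.3% of genes were. Pdgfb, Pdgfc and Pdgfra were within 1.5 times, with ratios of 1.04 (0.735 to 1.5), 0.918 (0.747 to 1.13) and 1.32 (1.06 to 1.66). For Pdgfra 1 conventional cell gave 27 of 122 UMIs. Without the highest cell of each library its level was 38.7 No-Touch and 24.6 conventional CPM, in place of 41.3 and 31.2. Different clusters held most of the class: cluster 12, led by Itga8 and Itih4, held 63.5% of No-Touch and 26.9% of conventional cells, and cluster 9, led by Rgs5 and Higd1b, held 36.2% and 72.0%. The summed pericyte markers in this class were 2025 CPM in the No-Touch and 3457 CPM in the conventional library, with none of the 9 at 0; their part in the result was not tested. Within cluster 12 Pdgfa had a ratio of 0.542 (0.485 to 0.605) and Pdgfrb of 0.544 (0.479 to 0.618). Within cluster 9 the ratios were 0.652 (0.599 to 0.710) and 0.661 (0.60 to 0.727). Pdgfd was 2.68 times higher in cluster 12 (1.83 to 4.03) but stood at a ratio of 1.08 (0.719 to 1.61) in cluster 9. Pdgfc went opposite ways: in cluster 12 it was at 45.9 No-Touch and 104 conventional CPM, a ratio of 0.440 (0.352 to 0.550), and in cluster 9 at 23.3 and 7.04 CPM, a ratio of 3.31 (1.83 to 6.23). Pdgfra in cluster 9 stood at 31.5 and 14.1 CPM, a ratio of 2.24 (1.43 to 3.54), and in cluster 12 at a ratio of 0.80 (0.612 to 1.05). In cells with a Y-linked UMI and no Xist UMI the log2 ratios of the class were -1.12 for Pdgfa, -1.04 for Pdgfrb and 1.11 for Pdgfd.

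Among the other mural cells, none of 5 counted genes was 1.5 times apart in mixed mural cells, where 13.2% of genes were higher and 5.95% lower. Pdgfrb came nearest, with a ratio of 0.689 (0.639 to 0.743), and was past the limit with TMM scaling, with median-of-ratios scaling and with a looser gate, at log2 ratios of -0.66, -0.66 and -0.63. Pdgfra was past it with the looser gate too, at 0.59 in place of 0.49. In pericyte-like cells Pdgfa had a ratio of 0.739 (0.692 to 0.789) and Pdgfrb of 0.863 (0.816 to 0.912), both within 1.5 times. Pdgfra was higher there, with a ratio of 2.85 (1.95 to 4.24) from 32.4 No-Touch and 11.4 conventional CPM, where 11.2% of genes were higher and 5.41% lower. The 10 fibroblast markers summed to 4913 CPM in No-Touch and 2767 CPM in conventional pericyte-like cells, and their part in the Pdgfra difference was not tested.

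In blood endothelial-like cells the ligand Pdgfb had a ratio of 0.760 (0.701 to 0.824) and Pdgfa of 0.747 (0.685 to 0.814). Pdgfd was higher in the No-Touch library, with a ratio of 2.04 (1.69 to 2.47), and so was Pdgfra, with 1.89 (1.52 to 2.36); 12.6% of genes were higher and 6.51% lower. A cluster led by Cytl1 and Bmx held 72 No-Touch cells of this class at 70.6 CPM of Pdgfd, while the larger cluster, led by Selp and Sele, stood at 21.1 No-Touch and 16.1 conventional CPM, a ratio of 1.31 (1.04 to 1.64). Within that larger cluster Pdgfa had a ratio of 0.553 (0.496 to 0.614), past the limit that the whole class did not reach. The fibroblast markers summed to 2683 and 1456 CPM beside the Pdgfra difference. In lymphatic endothelial-like cells Pdgfra was higher at 20.5 and 11.9 CPM and Pdgfrb lower at 9.5 and 15.2 CPM, where 9.52% of genes were higher and 7.25% lower. Neither call held under all settings: with doublets kept the log2 ratio of Pdgfra was 0.39, and in thinned cells that of Pdgfrb was 0.12. The fibroblast markers summed to 2081 and 1700 CPM there. In Schwann-like cells Pdgfa had a ratio of 0.986 (0.894 to 1.09) and Pdgfb of 1.25 (1.05 to 1.48). Pdgfra was higher there at 32.1 and 11.4 CPM and Pdgfrb lower at 15.7 and 41.1 CPM, where 14.5% of genes were higher and 8.00% lower; the fibroblast markers summed to 6498 and 3502 CPM. The part of these markers in the receptor differences was not tested.

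**Figure D3:**
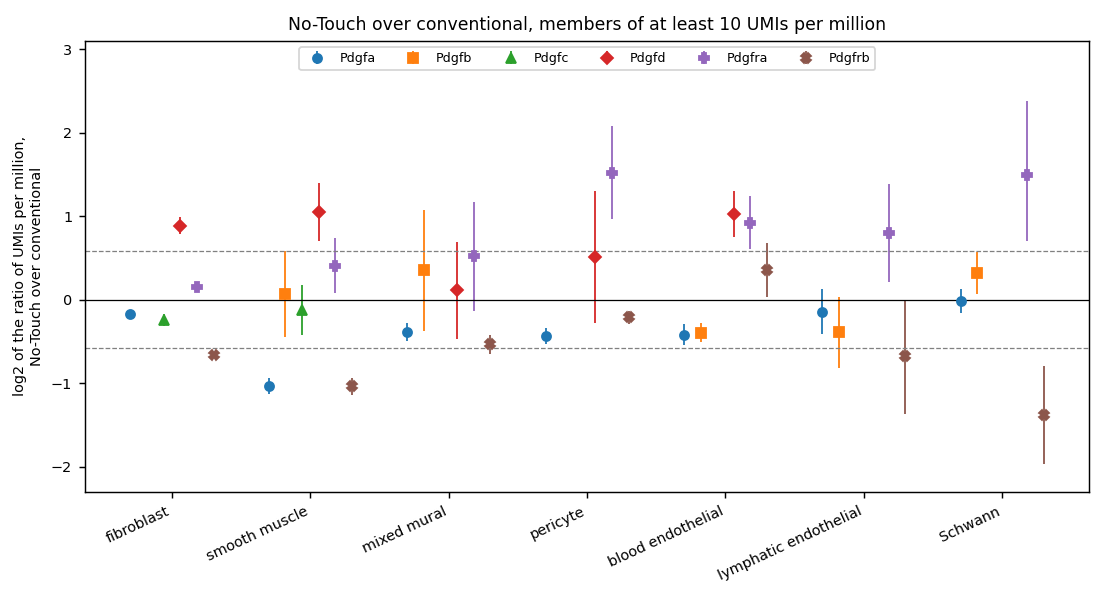
The log2 of the ratio of CPM, No-Touch over conventional, for each family gene at 10 CPM or more in 7 classes; bars are exact 95% intervals for counting error and dashed lines mark 1.5 times. Pdgfrb lies at or below 0 in every class shown except blood endothelial-like cells, and Pdgfra lies above 0 in each.

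Within fibroblast-like cells the genes divided differently among the clusters, which were made without the 6 genes. Several clusters belonged largely to 1 library, so such a cluster can also stand for its library; the mostly conventional cluster 13, led by Cxcl13 and Saa3, had Xist among its leading genes. Pdgfa and Pdgfc were both highest in cluster 4, led by Crabp2, at 137 No-Touch and 153 conventional CPM for Pdgfa and at 33.6 and 49.0 CPM for Pdgfc. In the conventional library Pdgfc in cluster 4 (43.7 to 54.8) overlapped cluster 20, led by Cxcl14, at 46.3 CPM (43.0 to 49.8). Pdgfa was lowest in cluster 11, led by Sema3c and Dpp4, at 16.9 and 20.5 CPM, so that the highest cluster was 8.14 times the lowest in the No-Touch and 7.48 times in the conventional library. Pdgfd ran the other way, with its lowest level in cluster 4, at 3.99 and 2.08 CPM. Its highest level was 25.5 CPM in cluster 1, led by C1qtnf3 and Thbs4, in the No-Touch library, and 18.9 CPM (14.0 to 25.01) in cluster 11 in the conventional one, where it overlapped cluster 1 at 15.6 CPM (13.1 to 18.6).

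The highest cluster was 2.02 and 1.73 times the lowest for Pdgfra and 2.95 and 3.51 times for Pdgfrb, smaller spreads than those of the ligands Pdgfa, Pdgfc and Pdgfd. Pdgfra ran from 183 CPM in cluster 1 to 370 CPM in cluster 3, which has the interferon-induced Cxcl9 and Cxcl10 among its leading genes, within the No-Touch library, and from 147 to 255 CPM within the conventional one. Pdgfrb was lowest in cluster 11, at 52.5 No-Touch and 70.3 conventional CPM. Its highest level was 155 CPM in the Gdf10-bearing cluster 2 in the No-Touch library and 246 CPM in cluster 7, led by Mmp13 and Grem1, in the conventional one. In the 5 clusters with at least 50 cells in both libraries Pdgfrb was lower in the No-Touch library each time, with ratios from 0.641 in cluster 4 to 0.855 in cluster 2. Only 2 of these 5 ratios lay past 1.5 times in that count, in clusters 1 and 4. Pdgfd reached 10 CPM in 3 of these clusters, and its ratio there was 1.63 (1.36 to 1.97) in cluster 1, past the limit, 1.26 (0.989 to 1.64) in cluster 2 and 1.07 (0.805 to 1.46) in cluster 11.

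**Figure D4:**
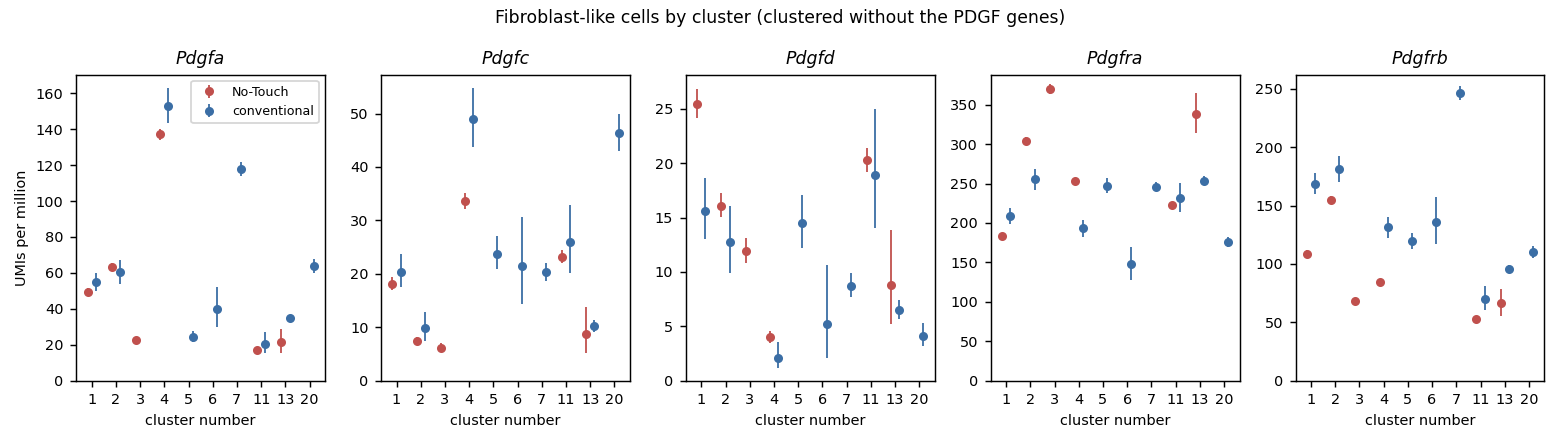
CPM of 5 family genes in fibroblast-like cells of each cluster with at least 50 cells, No-Touch in red on the left and conventional in blue on the right; bars are exact 95% Poisson intervals and each axis starts at 0. Pdgfa and Pdgfc peak in cluster 4 and Pdgfd is lowest there, and Pdgfrb is lower in the No-Touch library in all 5 clusters that have both points.

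The genes around the receptors were followed as 4 lists. In fibroblast-like cells, where 6.73% of all genes tested were higher and 3.17% lower, 2 of 13 measured genes that process or hold the ligands were higher and 1 lower in No-Touch grafts. Plat, tissue plasminogen activator, was at 276 No-Touch and 179 conventional CPM, and Plaur, the urokinase receptor, at 61.4 and 36.2. Of 20 measured genes of proximal receptor signalling, such as Grb2, Plcg1 and the subunits of PI3-kinase, none was 1.5 times apart in fibroblast-like cells, with a median log2 ratio of 0.00 against 0.05 over all genes tested. Of 11 negative regulators 1 was higher and 1 lower, and Spry2, a feedback inhibitor of receptor tyrosine kinases, stood at 68.3 and 29.0 CPM. Of 18 early genes that PDGF and many other signals induce, 5 were higher and 2 lower, beside the same 6.73% and 3.17% of all genes. Myc was at 256 and 96.5 CPM, Fos at 4664 and 2915, Has2, a hyaluronan synthase, at 70.6 and 44.0, and Ccnd1, cyclin D1, at 33.6 and 20.2.

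In smooth muscle-like cells, where 14.3% of all genes were higher and 9.60% lower, 4 of 11 measured negative regulators were lower and none higher in the No-Touch library, with a median log2 ratio of 0.00 over the list. Among them were Spry1 at 42.9 and 108 CPM, the phosphatase Ptpn1 at 112 and 241, and Spry4 at 35.1 and 69.8. Of the 18 early genes, 6 were lower and 2 higher. Thbs1, thrombospondin 1, was at 492 and 1699 CPM and the chemokine Cxcl1 at 1652 and 5180, while Fos was at 7074 and 2712 and Myc at 139 and 63.9. Of 12 ligand-processing genes 2 were higher and 3 lower: Plat at 59.3 and 36.6 CPM and Plaur at 41.8 and 26.8 were higher, and Sparc, a matrix protein that binds PDGF, at 3492 and 6549 and Pdgfrl, a receptor-like gene, at 33.5 and 53.2 were among the lower ones. In pericyte-like cells, where 11.2% of all genes were higher and 5.41% lower, 3 of 18 early genes were higher and 5 lower, with Has2 at 176 and 71.9 CPM and Fosl1 at 6.26 and 21.6. In Schwann-like cells, where 14.5% of all genes were higher and 8.00% lower, 4 of 11 negative regulators were higher and none lower, with Spry2 at 187 and 59.3 CPM and Dusp6 at 333 and 167. In blood endothelial-like cells, where 12.6% of all genes were higher and 6.51% lower, 5 of 16 early genes were higher and 2 lower, with Fos at 2666 and 571 CPM and Tiparp at 134 and 363. In lymphatic endothelial-like cells, where 9.52% were higher and 7.25% lower, 3 of 16 were higher and 3 lower, with Fos at 5369 and 1392 CPM and Ier3 at 739 and 1678. Receptor-proximal genes had 0 to 2 of 18 to 21 measured members apart in the 6 classes examined, a share near or below that of all genes.

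The genes whose levels ran most like each member were found over 20 profiles, the classes of at least 50 cells in either library. The profiles of the 2 libraries share classes, and those of a library share its preparation, so the correlations describe these data only. Depth differed between profiles, in the No-Touch library from 259185 UMIs in neutrophil-like to 268345052 in fibroblast-like cells. Among 6569 genes, Pdgfrb was nearest to Cacnb3 (Pearson r = 0.96), Pcdh18 (0.95) and Cacna1c (0.94). Pdgfra was nearest to Sfrp4 (0.93), Mmp2 (0.92) and Dnm1 (0.92). Pdgfa was nearest to Gjc1, Pelo and Exoc6b, each at 0.92, and Pdgfb to Prex2 (0.83), Plekho1 (0.81) and Itprid2 (0.81).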

How the data were processed

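Gene-by-cell UMI counts were used as the authors deposited them, 1 matrix per library; the submitters' processing notes name Cell Ranger 3.1.0 and mm10, while the file headers name Cell Ranger 6.0.0. How many mice or grafts gave each library, the kit version and whether counting used strand are not given in the sources used here. Barcodes were dropped below 500 genes or 1000 UMIs or above 10% mitochondrial UMIs (leaving 11525 No-Touch and 10458 conventional of 12450 and 11899). Scrublet's own threshold marked 0% and 2.26% of these, so the highest scores were removed at the expected rate in both, 9.22% and 8.37%. Total depth was 373319906 and 200851272 UMIs.

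Each cell was gated by its share of detected markers per set. The markers were written down earlier, while the gate's thresholds and scoring were set after seeing the files; a class is therefore a range of a score. Leiden clusters (scanpy 1.11.5) were made without the 6 genes. UMIs were summed per class and library and divided by the class total, as counts per 1000000 (CPM). Levels carry Garwood, shares Clopper-Pearson and ratios conditional exact 95% intervals. With 1 library per group there is no test. Log2 ratios use 1 CPM as pseudocount.

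The members and lists were chosen with earlier results of these data known. The rule for naming genes covered all 6 genes in each class of at least 50 cells, though not all of these levels are printed in the text. From each pathway list and class, up to 4 genes could be named. They were those with the largest log2 ratios among genes 1.5 times apart and at 20 CPM or more. The 3 genes most correlated with each member that reaches 50 CPM could be named too. Some genes that this rule picks are not reported here. Alternatives were TMM (edgeR 4.0.16 under R 4.3.3) and median-of-ratios scaling, other pseudocounts, minimum levels, gates, mitochondrial limits and doublet handling, classes from clusters, means over cells and thinned cells. Cells with a Y-linked UMI and no Xist UMI were an alternative chosen after seeing the data. The scripts were checked on simulated data.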

Additional observations from a re-analysis of the deposited data

How the results depend on the processing

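With 1 library per group no replicate could be left out. No paired analysis was possible because each group has 1 library. The calls for Pdgfa, Pdgfrb and Pdgfd in smooth muscle-like cells, Pdgfd in fibroblast-like cells, Pdgfd and Pdgfra in blood endothelial-like cells, Pdgfra in pericyte-like cells, and both receptors in Schwann-like cells held under each alternative that gave a value. None of these alternatives held the cluster fixed. Pdgfd was within 1.5 times in smooth muscle-like cluster 9, the larger blood endothelial-like cluster and fibroblast-like clusters 2 and 11. It was past that limit in smooth muscle-like cluster 12 and fibroblast-like cluster 1. In fibroblast-like cells the number of family genes at least 1.5 times apart was 2, and 1 with a minimum of 50 CPM or with thinned cells. In pericyte-like cells it was 1, but 0 with that minimum and 2 with a stricter gate, with means over cells, with thinned cells and in cells with a Y-linked UMI and no Xist UMI; Pdgfd was the gene added. In smooth muscle-like cells it was 3, and 5 with thinned cells, where Pdgfb and Pdgfra were added. It was 4 with a stricter gate and with means over cells, where Pdgfra was added, and 4 with classes from clusters, where Pdgfc was lower at a log2 ratio of -0.75 against -0.12. In blood endothelial-like cells it was 2, 0 with the minimum of 50 CPM and 3 with thinned cells. In lymphatic endothelial-like cells it was 2, but 0 with that minimum, 3 with a stricter gate and 1 with a pseudocount of 5, with classes from clusters, with doublets kept and with means over cells. Pdgfrb in that class changed sign, with a log2 ratio of 0.12 in thinned cells against -0.63, and the cause was not tested.

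Of the pathway lists, the minimum of 50 CPM, which tests fewer genes, left 1 negative regulator apart in fibroblast-like cells in place of 2. In pericyte-like cells it left 1 ligand-processing, 0 receptor-proximal and 5 early genes in place of 2, 2 and 8. In smooth muscle-like cells it left 0 receptor-proximal genes in place of 2. In blood endothelial-like cells it left 1 ligand-processing gene, 1 receptor-proximal gene and 2 negative regulators in place of 2, 2 and 4. It left 3 ligand-processing genes in lymphatic endothelial-like cells in place of 5, and in Schwann-like cells 2 in place of 4, with 0 receptor-proximal genes in place of 2. Median-of-ratios scaling gave 4 ligand-processing genes apart in pericyte-like cells, and 4 receptor-proximal genes and 2 negative regulators in blood endothelial-like cells. Depth limits the low levels most: in the neutrophil-like class 3 UMIs correspond to 11.6 CPM in the No-Touch and 3.94 CPM in the conventional library.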

Other observations

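Within the conventional library, Pdgfc was lower in cells with Xist than in cells with Y-linked UMIs in fibroblast-like, smooth muscle-like and ungated cells. In fibroblast-like cells it was at 12.7 CPM (11.1 to 14.6) in the 806 cells with a UMI of Xist and none of the Y-linked genes, and at 24.3 CPM (23.2 to 25.5) in the 3172 cells with the reverse. In smooth muscle-like cells the levels were 9.89 CPM (4.27 to 19.5) in 68 cells and 42.6 CPM (34.9 to 51.6) in 160 cells, and in ungated cells 12.4 CPM (9.23 to 16.3) and 28.1 CPM (25.7 to 30.6). In mixed mural cells they were 11.5 CPM (5.49 to 21.1) and 5.49 CPM (2.63 to 10.1), and in pericyte-like, endothelial-like and Schwann-like cells the intervals also overlapped. Clusters within these classes differed in Pdgfc too: conventional smooth muscle-like cells held 7.04 CPM in cluster 9 and 104 CPM in cluster 12, and fibroblast-like cells of cluster 13, which has Xist among its leading genes, held 10.2 CPM. The part of the clusters in the difference was not tested. Pdgfra in the 806 and 3172 fibroblast-like cells was at 265 and 225 CPM, and Pdgfrb at 142 and 151. Pdgfc was not the only gene with intervals apart, and the direction varied. Pdgfra in smooth muscle-like cells was at 13.6 CPM (6.79 to 24.3) with Xist and 37.8 (30.5 to 46.3) with Y-linked UMIs. There 1 cell gave 27 of the 122 Pdgfra UMIs of the class. Cells with Xist gave 11 of the 122 and cells with Y-linked UMIs 93, and that cell lay among the latter. The split without that cell was not computed. In the order of Xist and then Y-linked UMIs, Pdgfa in lymphatic endothelial-like cells was at 128 (101.5 to 159.3) and 54.2 (44.83 to 64.85). Pdgfb in blood endothelial-like cells was at 115 (102 to 129.3) and 154 (145 to 163.7). Since the labels state neither sex nor the number of mice, sex and animal cannot be told apart either.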
